A study of Mus musculus with 21 samples.

Results

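The comparison described here set macrophages pretreated with dimethyl malonate (DMM) against macrophages pretreated with succinate, both before lipopolysaccharide (LPS). Its libraries were chosen by their labels and column names, and 6 of the 21 libraries of the series belong to it. After DMM for 3 h there were 2 libraries at 4 h of LPS (A and B) and 2 at 48 h of LPS (1 and 2). After succinate for 3 h there was 1 library at 4 h (B) and 1 at 48 h (1). The deposited columns number the 4 h libraries 1 and 2. That 2 is B and 1 is A was inferred from the only succinate sample of 4 h, which is labelled B and has column number 2. All were RNA libraries of bone marrow-derived macrophages from C57bl/6 mice aged 12 weeks, grown for 6 days with L929 medium as the source of M-CSF. No dose of DMM or succinate and no vehicle is given in the sources used here, and nothing says that libraries of a group came from separate cultures or animals, so a p-value here speaks of the variation among the libraries, which may be technical. With 1 succinate library at each time of LPS, the spread among succinate libraries of the same time could not be measured. No p-value here includes that spread, however small the p-value is. The rest of the series, used here only for comparison, holds 4 libraries of DMM alone, 4 of succinate alone, 3 of untreated cells and 4 of LPS alone (2 at 4 h and 2 at 48 h). One of the LPS 48 h libraries, that of column 1, stood apart, with 0.89 CPM of Il1b and 33.8 CPM of Saa3, so levels of LPS alone at 48 h are given from the library of column 2.

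Succinate is a tricarboxylic acid (TCA) cycle intermediate that succinate dehydrogenase (SDH), which is also complex II of the respiratory chain, oxidises to fumarate. DMM is a cell-permeable diester that esterases turn into malonate, the classical competitive inhibitor of SDH, and malonate is the dicarboxylic acid whose carbon chain is a single methylene shorter than that of succinate. LPS is the bacterial ligand of Toll-like receptor 4, and in macrophages it induces IL-1β, TNF, chemokines and, through type I interferon, a second wave of antiviral genes. The comparison therefore places a source of an SDH inhibitor against added succinate under the same stimulus. SDH activity and the uptake of either compound are not measured by these libraries.

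The genes described below include neutrophil-attracting chemokines, interferon-induced genes and sterol synthesis genes. Stretches of 200 bases ending just before the RefSeq start site (build GRCm38.p6, each printed on the strand of its gene) are shown for 6 of these genes, to show the letters that their known classes of regulator read. Capitals mark the kappaB pattern (GGG, any 2 bases, then TTTCC) in the chemokine genes, the interferon-stimulated response element pattern (GAAA, any 2 bases, then GAAA) in Ifit3 and Rsad2, and the sterol regulatory element pattern TCACNCCAC in Hmgcs1, each searched on both strands. The windows are chr5:90891045-90891244 (plus strand) for Cxcl1, chr5:90903699-90903898 (plus) for Cxcl2, chr5:90785901-90786100 (plus) for Cxcl3, chr19:34583329-34583528 (plus) for Ifit3, chr12:26456453-26456652 (minus) for Rsad2 and chr13:119690151-119690350 (plus) for Hmgcs1.
Cxcl1: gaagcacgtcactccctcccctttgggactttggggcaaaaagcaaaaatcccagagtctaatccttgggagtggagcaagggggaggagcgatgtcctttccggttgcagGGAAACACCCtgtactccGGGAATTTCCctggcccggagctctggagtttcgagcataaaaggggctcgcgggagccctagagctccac
Cxcl2: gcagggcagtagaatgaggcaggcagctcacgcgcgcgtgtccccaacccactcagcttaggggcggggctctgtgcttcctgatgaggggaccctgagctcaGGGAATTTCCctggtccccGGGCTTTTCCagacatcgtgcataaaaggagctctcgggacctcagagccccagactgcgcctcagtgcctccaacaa
Cxcl3: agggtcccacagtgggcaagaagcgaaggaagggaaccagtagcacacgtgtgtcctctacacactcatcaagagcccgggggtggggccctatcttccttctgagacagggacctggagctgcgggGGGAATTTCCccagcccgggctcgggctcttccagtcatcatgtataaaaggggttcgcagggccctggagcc
Ifit3: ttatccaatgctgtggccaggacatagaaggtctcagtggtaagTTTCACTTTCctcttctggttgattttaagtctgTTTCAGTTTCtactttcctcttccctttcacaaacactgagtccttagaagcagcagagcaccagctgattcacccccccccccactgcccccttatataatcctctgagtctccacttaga
Rsad2: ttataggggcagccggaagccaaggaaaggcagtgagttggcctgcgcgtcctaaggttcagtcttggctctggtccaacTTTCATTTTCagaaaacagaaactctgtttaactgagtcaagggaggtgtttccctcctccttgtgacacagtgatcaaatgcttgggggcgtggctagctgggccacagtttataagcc
Hmgcs1: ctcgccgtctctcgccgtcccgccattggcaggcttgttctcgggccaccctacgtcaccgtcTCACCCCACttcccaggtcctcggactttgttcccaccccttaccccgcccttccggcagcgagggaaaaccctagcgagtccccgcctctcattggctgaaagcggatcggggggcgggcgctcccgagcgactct

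Over the 250 bases before the start, the kappaB pattern was found in 1.41% of all 32851 promoters of the RefSeq table and in 4 of the 10 tested chemokine genes that matched it (Cxcl1, Cxcl2, Cxcl3 and Ccl9). The interferon pattern was found in 2.98% of all promoters and in 15 of 33 matched interferon-response genes, 5 of them among the 16 matched genes that were called. The sterol pattern was found in 1.05% of all promoters and in 1 of 11 matched cholesterol genes. These counts describe letters in a window and not binding.

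The 6 libraries held between 996916 and 1546867 counts. Levels are given as CPM, the usual count unit relative to library size, here with the size scaled by the trimmed mean of M-values (TMM). A gene is called here when its Benjamini-Hochberg adjusted p from edgeR's quasi-likelihood test is under 0.05, and fold changes are log2 of DMM over succinate with their standard error (SE). Several properties of whole libraries moved with the pretreatment, and their part in the results was not tested. The 10 most abundant genes took 42.8 to 51.6% of the counts in the 4 DMM libraries and 34.8 and 35.6% in the succinate libraries. Ribosomal protein genes took 0.549 to 1.2% against 1.54 and 1.7%, and the iron-storage gene Fth1 took 10.5 to 12.4% against 6.04 and 6.33%. Between 11791 and 13122 genes had a count after DMM and 10629 and 10825 after succinate. By exon length, the shortest of 3 equal classes of tested genes had a median fold change of -0.17 and the longest 0.12. With time as a covariate, 398 of the 1757 shortest genes were called lower after DMM and 105 higher. Of the 1756 longest genes 140 were called lower and 96 higher.

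With time as a covariate, 1149 of 5661 tested genes differed between DMM and succinate before LPS (20.3%), of which 376 were higher after DMM (6.64%) and 773 lower (13.7%). The median over all tested genes was 0.03, and the counts of members of each gene list below stand against these shares. In 1128 of the 1149 called genes both DMM libraries lay on the same side of the succinate library at 4 h and again at 48 h, which was also so for 2986 of all 5661 tested genes (52.7%). DESeq2 called 604 genes, 130 of them higher. The count was 330 without the succinate library of 4 h, 495 without that of 48 h and 756 without DMM library A of 4 h. Each time has a single succinate library, so leaving it out leaves the difference at the other time.

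Chemokines that attract neutrophils, and the platelet factor Pf4, were among the 10 genes that fell furthest after DMM. Cxcl3, a ligand of the neutrophil receptor CXCR2, stood at 9.25 and 6.68 CPM in the DMM libraries of 4 h and at 1315 CPM in the succinate library, and at 48 h it stood at 0.841 and 1.92 CPM against 243.7 CPM. Its fold change was -7.34 ± 0.48 (edgeR adjusted p = 3.3e-26). LPS alone gave 11.1 and 7.61 CPM at 4 h, near the DMM libraries and far below the succinate library.

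Cxcl1, a second CXCR2 ligand, had 6.94 and 8.58 CPM after DMM and 221.6 CPM after succinate at 4 h, and 0.841 and 1.92 against 24.5 CPM at 48 h (fold change -4.70 ± 0.34, adjusted p = 3.4e-23). Cxcl2, the third of these ligands, had 75.2 and 83.9 against 1170 CPM at 4 h and 18.5 and 13.4 against 316.0 CPM at 48 h (-4.07 ± 0.39, adjusted p = 1.8e-15). In LPS alone Cxcl2 reached 253.3 and 254.4 CPM at 4 h, between the pretreatments. Pf4, which encodes platelet factor 4, had 6.36 and 2.86 against 207.0 CPM at 4 h and 2.52 and 1.92 against 307.8 CPM at 48 h (-6.07 ± 0.35, adjusted p = 5.3e-29), and 9.95 and 13.04 CPM in LPS alone at 4 h. The SE of Pf4 was larger in the fit of 14 libraries that includes those without LPS, with -5.36 ± 1.16 at 4 h and -7.03 ± 1.31 at 48 h. For all of these genes the DMM and succinate libraries did not overlap at either time. The rule that named them among the 10 lowest required this, so it is no separate result. The kappaB letters printed above for Cxcl1, Cxcl2 and Cxcl3 lie within 97 bases of the start.

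CC chemokines, which attract monocytes and lymphocytes, went the other way in part. Ccl7, a ligand of the monocyte receptor CCR2, had 202.4 and 265.1 CPM after DMM and 21.2 CPM after succinate at 4 h, and 137.1 and 199.2 against 9.33 CPM at 48 h (3.75 ± 0.44, adjusted p = 1.4e-11). LPS alone had more than either, 950.0 and 1265 CPM at 4 h. Ccl2, the main monocyte attractant, rose by 2.18 ± 0.56 (adjusted p = 0.002), from 297.3 CPM in the succinate library to 1256 and 1849 CPM at 4 h, and its call was lost without either succinate library. Ccl8 had no count in either succinate library and 5.72 to 17.2 CPM after DMM, and over the group it was 6-fold higher when set against 3 counts. Ccl9, an attractant of myeloid cells, fell by 3.47 on the log2 scale (SE 0.48, adjusted p = 5.1e-09), with 130.7 to 293.1 CPM in the 4 DMM libraries and 1878 and 2740 CPM in the succinate libraries.

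Of the 15 measured chemokines, 6 rose after DMM (Ccl2, Ccl4, Ccl7, Ccl8, Ccl12 and Cxcl10) and 5 fell (Cxcl1, Cxcl2, Cxcl3, Pf4 and Ccl9), with a median of -0.02. Without the succinate library of 48 h these counts were 2 and 3 of 13, and without that of 4 h 4 and 4 of 13. Cxcl1 and Pf4 did not pass the count filter in these fits and were not tested there. Ccl3 (-0.02 ± 0.47) and Ccl5 (1.61 ± 0.65, adjusted p = 0.065) did not pass the test. The call of Ccl4 (1.02 ± 0.38, adjusted p = 0.043) was lost in 8 of 14 alternatives. Ccl2, Ccl4, Ccl9, Ccl12, Ccl3 and Ccl5 were named after their values were seen.

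Receptors for such signals moved in both directions. Gpr84, a receptor for medium-chain fatty acids, had 25.4 and 29.6 against 495.0 CPM at 4 h and 25.2 and 28.7 against 415.1 CPM at 48 h (-4.06 ± 0.34, adjusted p = 1.3e-18), while LPS alone had 483.3 and 380.5 CPM at 4 h. Cx3cr1, the fractalkine receptor, fell by 3.17 on the log2 scale (SE 0.40, adjusted p = 2.4e-10), and its call was lost when both times were averaged in the fit of 14 libraries. Of 11 measured chemoattractant receptors 2 rose (18.2%, against 6.64% of all tested genes) and 4 fell (36.4%, against 13.7%). Without the succinate library of 4 h 2 rose and 2 fell.

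**Figure D1:**
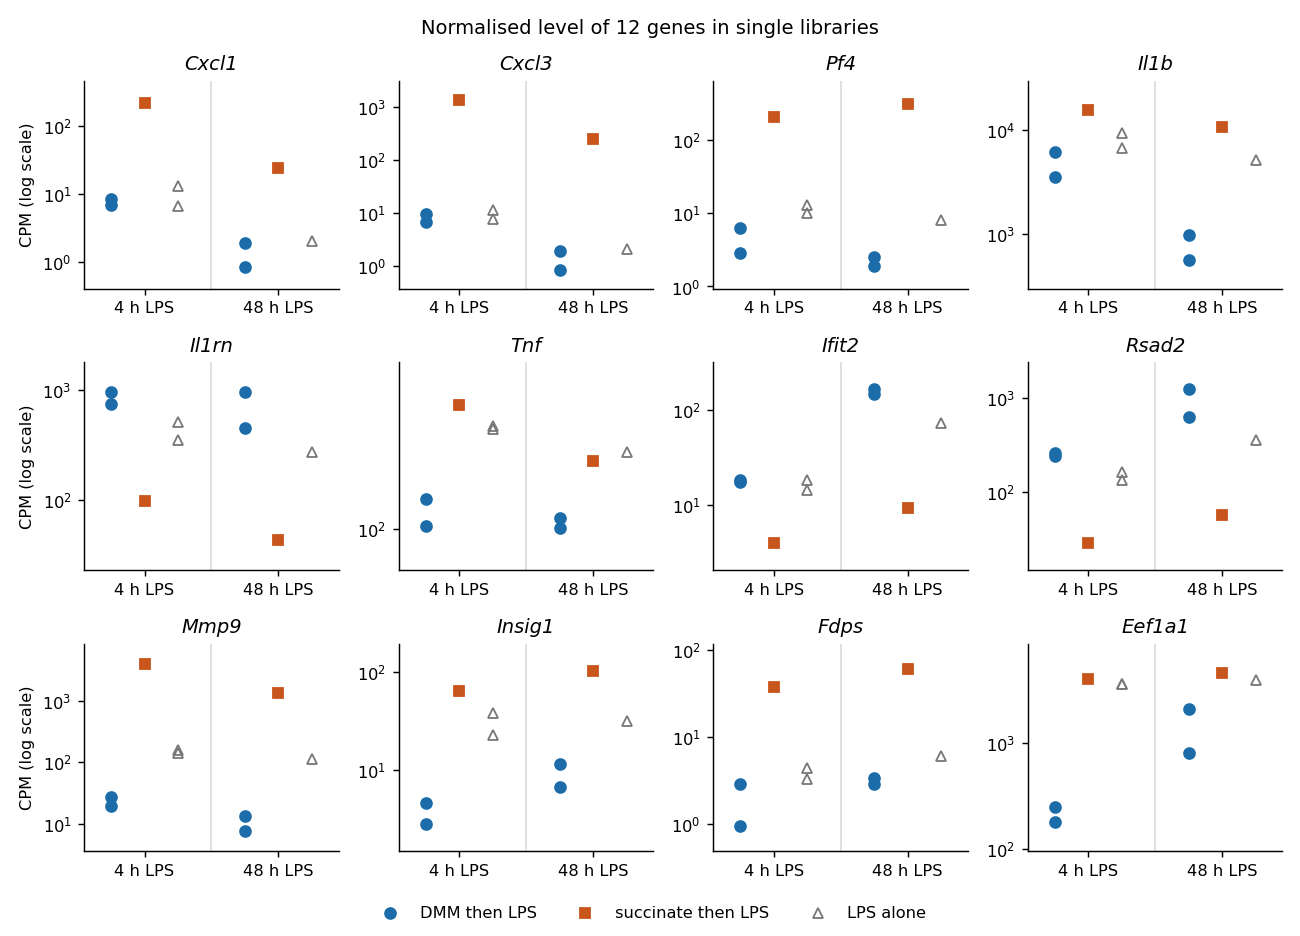
Normalised level (CPM, log axis) of 12 genes in single libraries at 4 h and 48 h of LPS, with DMM then LPS as filled circles, succinate then LPS as filled squares and LPS alone as open triangles (the LPS 48 h library that stands apart is not drawn). Cxcl3 stood at 1315 CPM in the succinate library of 4 h and at 9.25 and 6.68 CPM in the DMM libraries, and Il1rn ran the other way, at 98.2 against 740.3 and 954.5 CPM.

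IL-1β and its natural antagonist moved in opposite directions. Il1b, which encodes the IL-1β precursor, had 3567 and 6192 CPM after DMM and 15870 CPM after succinate at 4 h, and 551.8 and 967.5 against 10771 CPM at 48 h. Its fold change was -2.90 ± 0.60 (adjusted p = 0.00012). LPS alone lay between them, with 6772 and 9341 CPM at 4 h and 5200 CPM at 48 h. At 4 h alone the fold change was -1.70 (adjusted p = 0.091), and the call over both times was lost without the succinate library of 48 h. Il1b shares exons with the opposite-strand gene Il1bos, and no source used here states whether counting used strand.

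Il1rn, which encodes the IL-1 receptor antagonist, had 740.3 and 954.5 CPM after DMM and 98.2 CPM after succinate at 4 h, and 453.4 and 954.1 against 43.1 CPM at 48 h (3.53 ± 0.55, adjusted p = 2.7e-07). The groups did not overlap, and LPS alone again lay between them, with 353.9 and 507.6 CPM at 4 h. Nlrp3, the sensor of the inflammasome that matures IL-1β, fell by 1.23 on the log2 scale (SE 0.30, adjusted p = 0.0013), and Gsdmd, which encodes the pore-forming gasdermin D, by 1.05 (SE 0.32, adjusted p = 0.012). Both of these calls were lost with DESeq2 and without the succinate library of 4 h, and that of Gsdmd also without DMM library A or B of 4 h. Il1a, encoding IL-1α, was at or under 13.3 CPM in the 6 libraries and did not pass (-0.09 ± 0.59).

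Tnf had 104.7 and 147.8 CPM after DMM and 504.3 CPM after succinate at 4 h, and 101.8 and 115.9 against 241.4 CPM at 48 h (-1.60 ± 0.35, adjusted p = 0.00025), and its call was lost without the succinate library of 4 h. LPS alone, with 380.4 and 367.4 CPM at 4 h and 273.9 CPM at 48 h, lay above the DMM libraries at both times. Of the 6 measured cytokines 3 fell (Il1b, Tnf and Ebi3, a subunit of IL-27 and IL-35) and none rose. Only 1 fell without the succinate library of 4 h.

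Tlr2, the receptor of bacterial lipopeptides, had 14.5 and 18.1 against 219.0 CPM at 4 h and 25.2 and 18.2 against 222.7 CPM at 48 h (-3.55 ± 0.29, adjusted p = 2.2e-19), with 66.4 and 66.3 CPM in LPS alone at 4 h. Cd14, the LPS co-receptor, fell by 1.79 on the log2 scale (SE 0.55, adjusted p = 0.012), and its call was lost when any 1 of the libraries A or B of 4 h after DMM, or either succinate library, was left out. Tlr4 itself, named after its values were seen, did not pass the test (0.18 ± 0.29), with 25.9 to 48.6 CPM after DMM and 30.3 and 37.2 CPM after succinate. Of the 19 measured genes of LPS sensing 3 fell (15.8%) and 1 rose (5.26%), near the shares of 13.7% and 6.64% over all tested genes. The count that fell was 1 without the succinate library of 4 h or without DMM library A or B of 4 h, and 5 without DMM library 2 of 48 h.

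Interferon-induced genes rose in part after DMM. Of 42 measured members of the type I interferon list, 17 rose (40.5%, against the background of 6.64%), none fell and 25 did not pass, with a median of 0.75. Rsad2, which encodes the antiviral enzyme viperin, had 238.3 and 257.5 CPM after DMM and 27.9 CPM after succinate at 4 h, and 628.3 and 1246 against 56.0 CPM at 48 h (3.63 ± 0.54, adjusted p = 5.6e-08). LPS alone had 133.8 and 159.8 CPM at 4 h and 353.5 CPM at 48 h, between the groups. Rsad2 was named after its values were seen.

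Ifit2, an antiviral RNA-binding protein gene, had 17.4 and 18.1 CPM after DMM and 3.98 CPM after succinate at 4 h. At 48 h it had 146.4 and 162.8 against 9.33 CPM, and over both times its fold change was 3.57 ± 0.44 (adjusted p = 1.0e-10). Without the succinate library of 48 h it was 2.12 and the call was lost. Ifit3, its neighbour in the gene cluster, rose by 2.88 ± 0.40 (adjusted p = 3.4e-08). Mx1, a dynamin-like antiviral GTPase gene, had only 3 counts in the succinate libraries together against 170 after DMM, a ratio of 18.2 with a 95% counting interval of 6.13 to 89.2. The interferon letters printed above stand 156 and 122 bases before the start of Ifit3 and 120 bases before that of Rsad2.

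Members that read the same pathway did not all move. Irf7 (-0.11 ± 0.54) and Isg15 (-0.02 ± 0.40) did not pass. They were named after their values were seen. Cxcl10, an interferon-induced T-cell attractant, had 7.52 and 2.86 against 3.98 CPM at 4 h, where the groups overlapped, and 38.7 and 57.5 against 2.33 CPM at 48 h, and its call (3.01 ± 0.60, adjusted p = 0.00015) was lost without the succinate library of 48 h. Without that library 10 of 43 interferon genes rose, without the succinate library of 4 h 12 of 43, and DESeq2 called 11 higher and 1 lower. Without DMM library 2 of 48 h 19 rose and 3 fell.

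Cholesterol synthesis genes were lower after DMM. Of 16 measured members 13 fell (81.2%, against the background of 13.7%), none rose, and the median was -2.19. The count filter let genes in through the 2 succinate libraries alone, Insig1 and Fdps among them. Such genes could be called lower but hardly higher. With no filter on low counts 15 of 23 members fell and none rose (median -1.83), against 682 of all 16734 genes that fell in that fit. Insig1, which retains the sterol-sensing complex in the endoplasmic reticulum and is itself a sterol-regulated gene, had 4.63 and 2.86 CPM after DMM and 63.7 CPM after succinate at 4 h, and 6.73 and 11.5 against 100.3 CPM at 48 h (-3.68 ± 0.31, adjusted p = 1.2e-18). LPS alone had 37.6 and 22.8 CPM at 4 h and 31.2 CPM at 48 h, between the groups.

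Fdps, the farnesyl diphosphate synthase gene, had 2.89 and 0.954 against 37.2 CPM at 4 h and 3.36 and 2.87 against 59.5 CPM at 48 h (-4.13 ± 0.40, adjusted p = 3.3e-15). LPS alone, at 3.32 and 4.35 CPM at 4 h and 6.04 CPM at 48 h, lay near the DMM libraries. Hmgcs1, shown above, had 10.99 and 12.4 against 57.1 CPM at 4 h and 12.6 and 14.4 against 73.5 CPM at 48 h (-2.37 ± 0.29, adjusted p = 6.6e-11). Srebf2, which encodes the transcription factor of this pathway, fell by 1.76 (SE 0.31, adjusted p = 5.1e-06), and its call was lost without the succinate library of 4 h, where the fold change was -1.05, and with the 48 h libraries alone. In fits lacking the succinate library of 4 h 7 of 13 sterol genes fell, and lacking that of 48 h 8 of 12. Insig1 and Fdps did not pass the count filter in these fits and were not tested there. Hmgcs1 and Srebf2 were named after their values were seen.

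Fatty acid synthesis followed in part. Of 22 measured members 10 fell and 2 rose, with a median of -0.60. Fasn, the fatty acid synthase gene, had 3.47 and 5.72 against 74.3 CPM at 4 h and 6.73 and 3.83 against 61.8 CPM at 48 h (-3.79 ± 0.33, adjusted p = 5.7e-18). Scd2, a stearoyl-CoA desaturase gene, fell by 3.13 (SE 0.38, adjusted p = 9.8e-11). Its relative Scd1 had 3 counts after DMM against 34 after succinate, a ratio of 35.2 with a counting interval of 11.1 to 179, and Fads2, another desaturase gene, had 1 against 21, a ratio of 65.3 with an interval of 10.5 to 2700. Without the succinate library of 48 h 2 of 19 fell and none rose, and without that of 4 h 4 of 19 fell and none rose. Fasn, Scd1 and Fads2 did not pass the count filter in these fits and were not tested there.

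Extracellular proteases were among the most changed genes. Mmp9, encoding gelatinase B, had 19.1 and 26.7 CPM after DMM and 3958 CPM after succinate at 4 h, and 13.5 and 7.66 against 1376 CPM at 48 h (-7.24 ± 0.55, adjusted p = 3.5e-21). LPS alone had 160.4 and 140.2 CPM at 4 h and 114.8 CPM at 48 h, above the DMM and far below the succinate libraries. Mmp8, encoding a collagenase, fell by 3.18 (SE 0.34, adjusted p = 2.7e-13) and Mmp14, encoding a membrane-bound metalloproteinase, by 1.80 (SE 0.29, adjusted p = 3.4e-07). Of 10 measured members 6 fell and 1 rose, and without the succinate library of 48 h 3 fell and none rose.

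The inhibitors had a mixed pattern. Timp1, a metalloproteinase inhibitor gene, was the member that rose, with 31 counts after DMM and 1 after succinate, a ratio of 9.97 with an interval of 1.66 to 406, and its call was lost in 6 of the 9 alternatives in which it was tested. Slpi, an inhibitor of leukocyte proteases, had 461.0 and 802.9 against 9141 CPM at 4 h and 144.7 and 359.2 against 5143 CPM at 48 h (-4.11 ± 0.55, adjusted p = 1.9e-09). Serpinb2, which inhibits plasminogen activators, fell by 3.86 (SE 0.50, adjusted p = 9.2e-10), with 3957 and 4310 CPM in LPS alone at 4 h.

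Mmp8, Mmp9 and S100a8 are also counted as neutrophil markers, and 3 of the 5 measured markers of that list fell and 1 (Csf3r) rose. The summed neutrophil list was 2420 to 6140 CPM in the DMM libraries and 15000 and 5860 CPM in the succinate libraries, and Lcn2 alone made up 2168 to 6066 CPM after DMM and 9857 and 4118 CPM after succinate. The neutrophil genes Ly6g, Ltf, Ngp and Elane were at 0 in all 6 libraries. Of the 15 genes of the list 6 had no count in the succinate library of 4 h and 10 had none in that of 48 h. After DMM 9 had no count in either library of 4 h and 8 had none in either library of 48 h. Of the 17 measured macrophage markers 6 fell (Csf1r, Itgam, Tyrobp, Cd14, Mpeg1 and Cx3cr1) and none rose, and all 17 had counts in each of the 6 libraries. That count was 1 when any 1 succinate library or DMM library of 4 h was left out. The part of these markers in the results was not tested. In such bulk libraries fewer cells of a type and less RNA per cell cannot be told apart.

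Receptors that take up particles and lipids, and enzymes of the prostaglandin and leukotriene pathway, moved in both directions. Of 15 measured scavenger and phagocytic receptors 7 fell and 2 rose (Cd5l and Fcgr4), and without the succinate library of 48 h 3 fell and 1 rose, and without that of 4 h 4 fell. Marco, a receptor of unopsonised bacteria, fell by 2.35 on the log2 scale (adjusted p = 1.33e-07). Of 11 measured prostaglandin and leukotriene genes 4 fell (36.4%, against 13.7% of all tested genes) and 2 rose (18.2%, against 6.64%). Without the succinate library of 48 h none fell and 1 rose, and without that of 4 h 1 fell and none rose. Without DMM library A or B of 4 h 2 fell.

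No SDH subunit gene passed the test. Sdha, the flavoprotein subunit of SDH, had 92.5 and 89.6 against 168.6 CPM at 4 h and 105.1 and 89.1 against 155.1 CPM at 48 h (-0.78 ± 0.30, adjusted p = 0.054), and it passed in 5 of 14 alternatives. Sdhb (-0.51 ± 0.32), Sdhc (-0.25 ± 0.34) and Sdhd (-0.13 ± 0.29) did not pass either, and Sucnr1, the succinate receptor, had no count in any of the 6 libraries. Of 14 measured genes that handle succinate or itaconate only Slc25a1, the mitochondrial citrate carrier, was called (-1.33 ± 0.27, adjusted p = 9.4e-05), and its call was lost without the succinate library of 4 h and with the 48 h libraries alone. That is 7.14% of the list, against 13.7% of all tested genes that fell. The count was 5 without DMM library 2 of 48 h, 3 without library 1 of 48 h, 2 without the succinate library of 48 h and 4 with a replicate block. Irg1, the enzyme gene of itaconate synthesis, had 3615 to 7782 CPM after DMM and 14535 and 12127 CPM after succinate (-1.43 ± 0.57, adjusted p = 0.062).

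Arginine metabolism and hypoxia genes were mixed. Nos2, the inducible nitric oxide synthase gene, rose by 1.51 ± 0.44 (adjusted p = 0.0074), with 448.8 and 483.5 against 261.4 CPM at 4 h and 137.1 and 282.6 against 38.5 CPM at 48 h, and its call was lost without the succinate library of 48 h. Slc7a2, an arginine transporter gene, fell by 2.49 (SE 0.31, adjusted p = 1.5e-10) and Ass1, which acts in making arginine from citrulline, fell by 2.66 (SE 0.33, adjusted p = 9.5e-11). Arg1 (-0.02 ± 0.53), Ptgs2 (0.20 ± 0.34) and Slc2a1 (-0.19 ± 0.31) did not pass. Hif1a, the hypoxia-inducible factor gene, fell by 1.28 (SE 0.42, adjusted p = 0.019), and its call was lost without either succinate library and without either DMM library of 4 h.

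Enzymes that supply NADPH fell in part. Idh1, the cytosolic NADP isocitrate dehydrogenase gene, had 289.8 and 309.0 against 2024 CPM at 4 h and 151.4 and 192.5 against 1744 CPM at 48 h (-3.06 ± 0.46, adjusted p = 9.1e-08), with 738.8 and 768.5 CPM in LPS alone at 4 h. Of the 6 measured pentose phosphate genes 4 fell (G6pdx, Tkt, Pgd and Taldo1), with a median of -1.42, and without the succinate library of 48 h 2 fell and without that of 4 h 1. G6pdx, the gene of the first enzyme of the pathway, fell by 1.84 (SE 0.33, adjusted p = 7.4e-06). Of 20 measured glycolysis genes 4 fell (20%, against 13.7% of all tested genes) and none rose. This count was 15 without DMM library 2 of 48 h, and 2 without either succinate library or without DMM library B of 4 h. Of 20 measured genes of the TCA cycle list 5 fell (25%, against 13.7%), namely Cs, Idh1, Dld, Mdh2 and Acly. Idh1 and Acly encode cytosolic enzymes that are not steps of the cycle itself. The count of the list was 2 without the succinate library of 48 h, and 3 without that of 4 h or without DMM library A or B of 4 h.

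Respiratory chain and antioxidant genes were lower as well. Of 66 measured nuclear genes of oxidative phosphorylation 32 fell (48.5%) and none rose, with a median of -0.87, and of 13 mitochondrially encoded transcripts 10 fell (median -1.47). The first count was 5 without the succinate library of 4 h, 17 without that of 48 h and 19 of 65 without DMM library A of 4 h, and DESeq2 called 12. Of 24 measured NRF2 and glutathione genes 11 fell and none rose, and the same libraries left out gave 3, 5 and 7, with 7 also without DMM library B of 4 h. Slc7a11, the cystine importer gene, fell by 1.96 (SE 0.30, adjusted p = 9.1e-08), whereas Hmox1, the heme oxygenase gene that NRF2 also controls, did not pass (0.81 ± 0.62). Hmox1 was named after its value was seen.

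Genes of translation were lower as well. Of 80 tested ribosomal protein genes, a list chosen after the values were seen, 63 fell and none rose, with a median of -2.16 at 4 h and -1.08 at 48 h. The count was 23 of 79 without the succinate library of 4 h. Rpl3, a large-subunit gene, had 13.9 and 16.2 against 224.3 CPM at 4 h and 26.9 and 44.1 against 258.9 CPM at 48 h, and LPS alone, at 222.3 and 283.7 CPM at 4 h, lay with succinate. Eef1a1, the elongation factor gene, had 178.1 and 250.8 against 4009 CPM at 4 h and 807.5 and 2099 against 4640 CPM at 48 h (-3.14 ± 0.58, adjusted p = 2.1e-05). Its call was lost without the succinate library of 4 h, where the fold change was -1.67, and with the 48 h libraries alone. Actb, a cytoskeletal gene often used as a reference, fell by 2.02 (SE 0.59, adjusted p = 0.0073), and its call was lost without either DMM library of 4 h and without either succinate library. Eef1a1, Actb and ribosomal protein genes have many processed pseudogenes, and Rpl3 and Actb were named after their values were seen. Short transcripts, the share of ribosomal protein reads and the share of the 10 most abundant genes moved with these groups, as given above, and their part in these results was not tested.

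Stress genes moved both ways. Of 24 measured chaperone and unfolded protein response genes 11 fell and none rose, and without the succinate library of 4 h or of 48 h 1 and 2 fell, and without DMM library A or B of 4 h 4 and 6. Hspa5, the main endoplasmic reticulum chaperone gene, had 249.9 and 284.2 against 1068 CPM at 4 h and 286.0 and 524.9 against 1278 CPM at 48 h (-1.83 ± 0.44, adjusted p = 0.00092), and its call was lost without either succinate library. Ddit3, the CHOP gene induced by the integrated stress response, rose by 2.63 ± 0.51 (adjusted p = 3.6e-05). It was the only riser among 13 measured ATF4 target and amino acid response genes (7.69%, against 6.64% of all tested genes). Of that list 2 fell (15.4%, against 13.7%), Slc7a11 among them, and its median was -0.44. With single libraries left out 1 to 5 of its members fell and 1 or 2 rose. Atf3, a stress-induced repressor gene, rose by 2.13 ± 0.41 (adjusted p = 2.7e-05), from 33.2 to 131.9 and 165.9 CPM at 4 h.

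**Figure D2:**
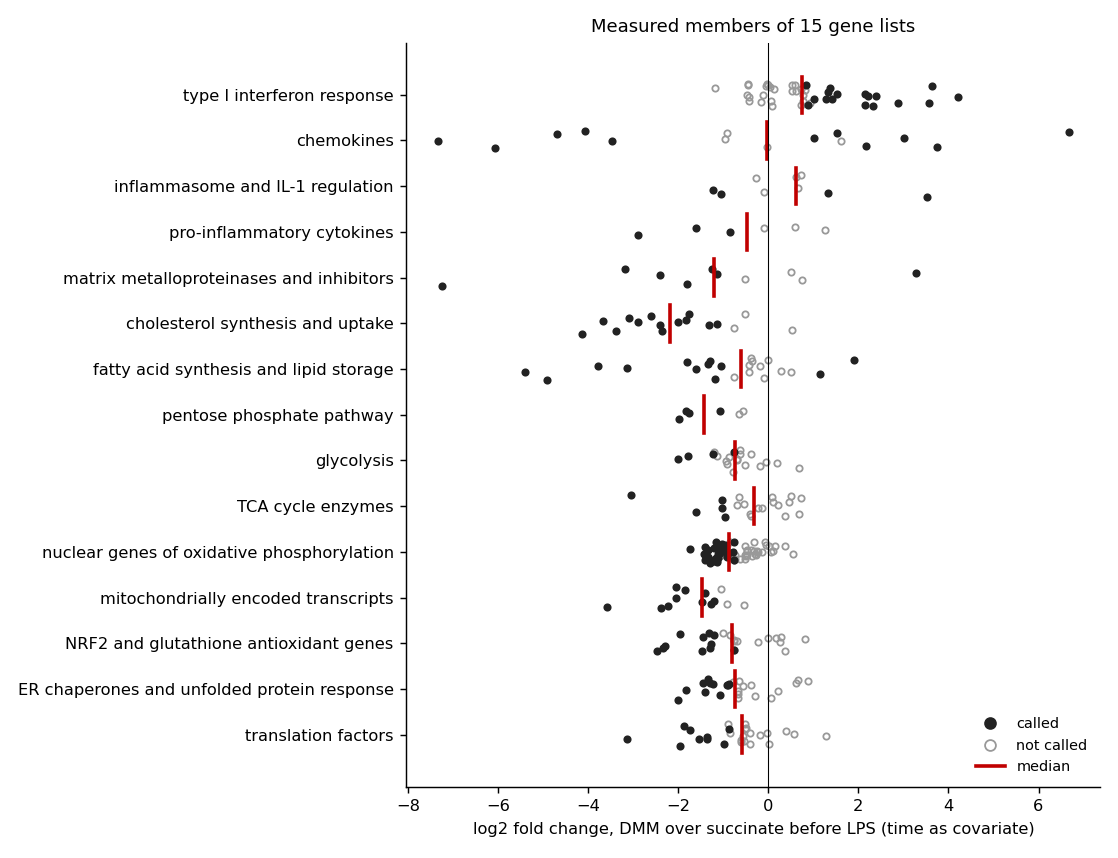
Fold change of DMM over succinate before LPS (log2, horizontal axis) for the tested members of 15 gene lists, with called genes as filled points, others as open points and the list median as a red bar. The interferon list has a median of 0.75 and no member called lower, and the cholesterol list has a median of -2.19 and no member called higher.

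Among the largest rises were genes with few counts after succinate. Dcn, the proteoglycan gene decorin, had 37.0 and 30.5 CPM at 4 h and 12.6 and 8.62 CPM at 48 h after DMM. It had no count after succinate, and was 12.9-fold higher after DMM when set against 3 counts. It is a marker of fibroblasts, but the other markers of that list were low, with Col1a1 at 1.16 to 5.75 CPM in the 6 libraries and the summed list at 23.9 to 46.8 CPM after DMM and 19.9 and 19.8 CPM after succinate. Cd5l, a macrophage-secreted scavenger protein gene, had 45.7 and 29.6 against 3.98 CPM at 4 h and 132.9 and 124.5 against 3.498 CPM at 48 h (4.41 ± 0.46, adjusted p = 1.1e-13). Without LPS Cd5l stood at 175.0 to 275.0 CPM after DMM alone and 205.2 to 267.4 CPM after succinate alone, above all 6 libraries. Fgl2, a membrane prothrombinase gene, had 9.25 and 1.91 CPM at 4 h and 100.9 and 137.9 CPM at 48 h after DMM, with no count and 4.66 CPM after succinate. Il7r, Thap4, Phf11 and Slfn10-ps each had 1 count after succinate and 56 to 71 after DMM. Their ratios lay between 18.0 and 22.8 and their counting intervals began between 3.10 and 3.97.

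Position against LPS alone differed with direction. At 4 h the mean of LPS alone lay nearer to succinate than to DMM for 604 of the 773 genes called lower after DMM (78.1%) and for 177 of the 376 called higher (47.1%). For lower genes such as Rpl3 and Gpr84 the succinate libraries resembled LPS alone, whereas for Cxcl3, Pf4 and Fdps the DMM libraries did.

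At 4 h of LPS taken alone, 450 of 6673 genes differed (6.74%), of which 63 were higher after DMM (0.944%) and 387 lower (5.8%). At 48 h alone 221 differed (3.31%), 52 higher (0.779%) and 169 lower (2.53%). Over the 5556 genes tested in both fits, 140 were called at both times and all with the same sign, that is 31.7% of the calls at 4 h and 63.9% of those at 48 h. Of the 1137 genes called over both times that were also in the fit of 14 libraries, 1136 had the same sign at 4 h and 48 h, a direction that the call over both times favours. With the 3 libraries of 48 h fitted alone the calls over both times of Ccl9, Il1rn, Rsad2, Mmp14, Slpi, Scd2, Acly, Marco, Ass1, G6pdx, Idh1 and Atf3 were lost, which happened to them under none of the other alternatives.

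The 4 h extremes included Slc28a2, a nucleoside transporter gene, with 30.1 and 22.9 CPM after DMM and no count after succinate. Set against 3 counts in place of none, Slc28a2 was 6.87-fold higher after DMM, and LPS alone had 54.2 and 47.8 CPM. Map3k3 and Zmym2 also had no count in the succinate library of 4 h, and were 3.53-fold and 2.98-fold higher by the same measure. At 48 h Tmem237 and Zscan29 had no count in the succinate library and were 3.84-fold and 3.71-fold higher by that measure. Rrm2, a ribonucleotide reductase gene, had 4 counts in the succinate library of 4 h and none after DMM. By that measure Rrm2 was 4.92-fold lower, a value that leaves out the counting error of the 4 counts. The calls of Zmym2 and Rrm2 at 4 h were lost without either DMM library, and those of Map3k3 at 4 h without DMM library A and of Tmem237 at 48 h without DMM library 1. The lower extremes Mmp9, Cxcl3 and Pf4 were called at both times, the call of Pf4 at 48 h being lost without either DMM library. Actg-ps1, at 76.97 CPM in the succinate library of 4 h and 0 and 3.81 CPM after DMM, is a pseudogene of Actg1, whose reads it can share.

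The size of the difference at 48 h was tested against that at 4 h, and no gene passed (0%, edgeR), with 234 of 6673 genes at an unadjusted p under 0.05, and none with DESeq2, with 105 at an unadjusted p under 0.05. For Cxcl10 the difference of fold changes was 3.81 ± 1.70, for Il1b -2.12 ± 0.90 and for Eef1a1 2.55 ± 0.80, each with an adjusted p of 0.9998. There is 1 succinate library at each time, which limits the precision of this contrast.

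**Figure D3:**
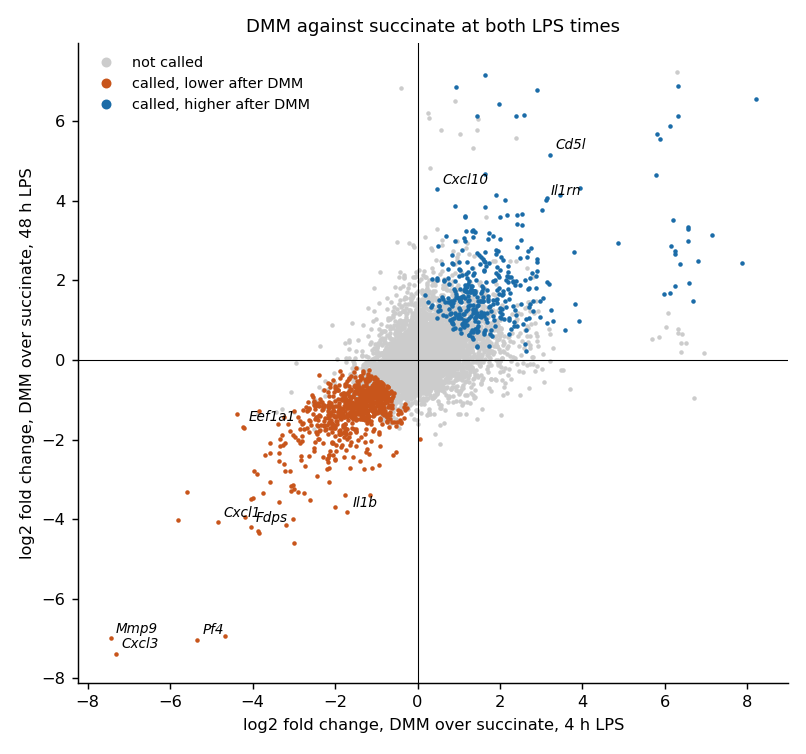
Fold change of DMM over succinate (log2) at 4 h (horizontal axis) and at 48 h of LPS (vertical axis) for the genes tested in both fits, coloured by the call over both times. The points form a diagonal band (Pearson r = 0.66 over 5556 genes, which share libraries within each time and are no replicates), with Mmp9, Cxcl3 and Pf4 at its lower end, and the column and row of points set apart on the right and at the top hold genes with no count or very few in a succinate library, whose fitted values are no bounds.

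Without LPS the same pair of pretreatments differed in few genes. Of 6673 genes 9 were called between 4 libraries of DMM alone and 4 of succinate alone (0.135%), with 555 at an unadjusted p under 0.05. The samples without LPS carry the letters of the 4 h set or the numbers of the 48 h set, but their deposited columns give no hours. They were therefore pooled with no term for set, here and in the contrast with LPS minus without. What this pooling did to the counts was not tested. Atp6v0d2, a subunit gene of the vacuolar proton pump, had 3.17, 5.32 and 6.93 CPM (lowest, median and highest) after DMM and 31.0, 38.5 and 49.7 CPM after succinate (-2.83 ± 0.31, adjusted p = 6.6e-06). Apoc2, Fam20c, Mfge8 and Npy were also lower after DMM. Ccr2, the receptor of Ccl2 and Ccl7, was higher after DMM (1.70 ± 0.29, adjusted p = 0.011), with 31.1 to 47.3 against 5.97 to 18.8 CPM, and Parvg, Atp2a3 and Eng were higher too. The count of 9 lay between 1 and 12 when single libraries were left out, and each of these genes but Atp6v0d2 lost its call without at least 1 of the libraries. Eng and Fam20c were also called before LPS, both higher after DMM (1.36 ± 0.33 and 0.89 ± 0.30). The call of Eng before LPS was lost without either succinate library, and that of Fam20c in 7 of 14 alternatives, among them DESeq2 and the fits without either succinate library. For Fam20c the fold change was 0.89 before LPS and -1.46 without LPS (difference 2.36, adjusted p = 0.00096).

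Without LPS the median of the interferon list was -0.16, that of oxidative phosphorylation -0.03 and that of ribosomal proteins -0.10, with -0.04 over all tested genes. The cholesterol synthesis list stood lower, at -0.50, against -2.19 before LPS. None of the members of these lists was called without LPS. Il1b stood at 1.502 to 7.77 CPM in the 4 libraries of DMM alone and at 2.14 to 11.9 CPM in those of succinate alone, and Cxcl1 and Cxcl3 had no count in any of the 8. Il1rn stood at 11.3 to 15.8 CPM against 14.1 to 21.5 CPM, so the groups overlapped. Across 5556 genes the fold changes with and without LPS had a Pearson r of -0.01, a description over genes and not over samples.

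The contrast with LPS (mean of both times) minus without was called for 455 of 6673 genes (6.82%), 127 of them more positive with LPS (1.9%) and 328 more negative (4.92%). Rsad2 (3.97, adjusted p = 1.6e-05), Il1rn (3.97, adjusted p = 1.6e-05) and Rpl3 (-3.31, adjusted p = 1.5e-05) were among them. Insig1 (-3.40, adjusted p = 0.0057) and Gpr84 (-5.80, adjusted p = 0.00048) were called as well, and Il1b was not (-2.08, adjusted p = 0.12). Gpr84 stood at 0.866 to 10.5 CPM in DMM alone and at 0 to 2.35 CPM in succinate alone, so the size of its difference rests on few counts. The count was 246 without DMM library A of 4 h and 760 without DMM library 2 of 48 h.

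**Figure D4:**
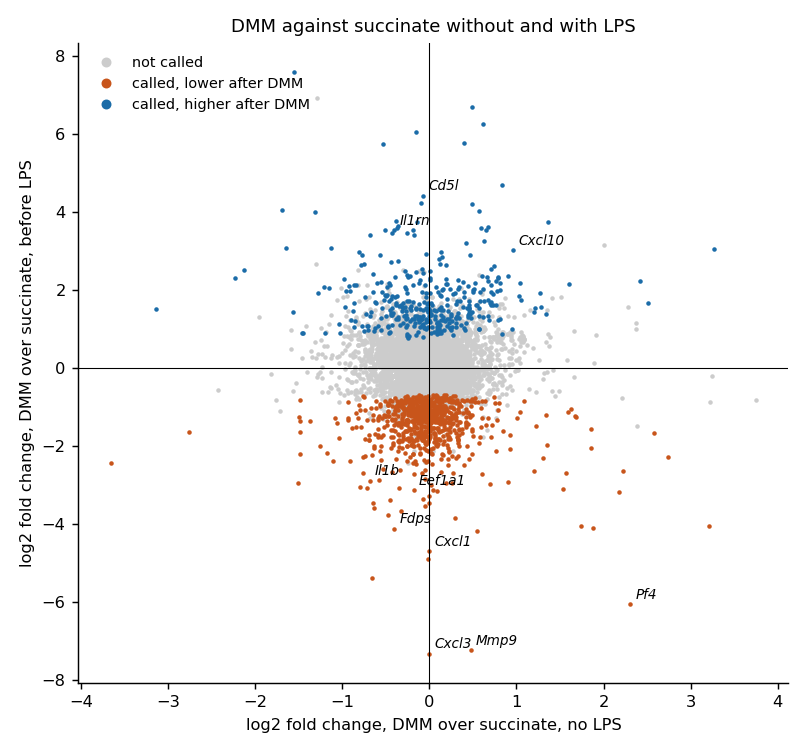
Fold change of DMM over succinate (log2) without LPS (horizontal axis) and before LPS over both times (vertical axis) for all genes tested in both fits, coloured by the call before LPS. The called genes spread up and down at horizontal values near 0, with Cxcl3 at -7.34 and Il1rn at 3.53 on the vertical axis.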

How the data were processed

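RNA was prepared as full-length cDNA by a variation of SmartSeq2, per the labels' protocols. The authors deposited 1 table of raw read counts per gene for 34573 genes. The submitters' processing notes name TopHat2, Bowtie, HTSeq and edgeR. Nothing read for this work states their versions, the genome build or the strand setting.

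From the deposited counts, TMM factors were computed over all 21 libraries. A gene entered a fit if at least 2 libraries reached the CPM that 10 reads give at median depth, and if its counts summed to 15 or more. In the fit of 6 libraries a gene could thus enter through the 2 succinate libraries alone. The 6 libraries were fitted with time as a covariate (3 residual degrees of freedom) by edgeR 4.0.16 quasi-likelihood tests in R 4.3.3, with Benjamini-Hochberg adjusted p under 0.05. The contrasts by time, without LPS and between these came from 1 fit of 14 libraries in 6 groups (8 residual degrees of freedom). DESeq2 1.42.0 was an alternative. Scripts were tested on simulated data. Where a group had no count, folds were computed as if it had 3 counts in all, which leaves out the counting error of the other group. Folds with 1 to 3 counts in a group have an exact 95% interval, which covers counting error only.

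Named genes were the 10 highest and 10 lowest called genes with at least 10 CPM and libraries apart at both times, up to 3 per list by p, a panel of 16 genes, the 5 extremes each way of the other contrasts, and all genes called where under 10 were. The members and gene lists were chosen with earlier results of these data known. DMM libraries of a time differed by more than sampling noise (chi-square per degree of freedom 4.89 and 11.9), so none was merged. Some genes that this rule names are not reported here.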

Additional observations from a re-analysis of the deposited data

Results flagged for a closer look

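For 10 genes the fold change of DMM over succinate differed between cells with LPS (mean of both times) and cells without, by edgeR's test of the difference, and these were the extremes among the genes called. On the log2 scale the difference was -8.50 for Pf4, -7.69 for Mmp9, -7.30 for Cxcl2, -5.98 for Slpi and -5.85 for Rrm2, and it was 6.65 for Il7r, 6.23 for Thap4, 6.02 for Mrm1, 5.81 for Fam195b and 5.61 for Rnf167. For Rrm2, Fam195b and Rnf167, which had no count in one pretreatment with LPS, and for Il7r, Thap4 and Mrm1, which had 1 to 3 counts after succinate with LPS, the fitted value depends on the prior count and is no bound. The same holds for Cxcl2, which had no count in the 4 libraries of succinate alone and at most 3.004 CPM in those of DMM alone. Its difference was -4.09 and no longer called without DMM-alone library 2. Mmp9 lay at 0 to 1.94 CPM and Slpi at 0 to 5.83 CPM in the 8 libraries without LPS, so that their values rest on few counts there too, and the call of Slpi was lost without DMM-alone library 3. The calls of Mrm1 and Fam195b were also lost without single libraries. Rnf167 shares exons with Slc25a11 and Thap4 with Gm10550, each on the opposite strand.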

How the results depend on the processing

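The count of 1149 genes over both times was 604 with DESeq2 and 139 with the 48 h libraries alone, and lay between 330 and 1702 when single libraries were left out. DESeq2 moved the share of higher calls from 32.7% to 21.5%. The count of 450 at 4 h was 217 with all 21 libraries and between 80 and 245 with a DMM library left out. The count of 221 at 48 h was 344 in a fit of the 6 libraries alone, 61 with all 21 and between 110 and 512 with a DMM library left out. The count of 9 without LPS was 16 with DESeq2, 53 with no filter on low counts, 1 with all 21 libraries, 19 with 20 libraries (without the LPS 48 h library of column 1, an alternative chosen after seeing the data) and between 1 and 12 with single libraries left out. The count of 455 for the contrast with and without LPS was 208 with all 21 libraries and between 246 and 760 with single libraries left out. The cause of these shifts was not tested. The difference between times had 0 calls under every alternative run. No gene named here that was called over both times changed direction. Among those not called, the fold change crossed 0 under some alternatives for Il1a (-0.60 to 0.59), Arg1 (-0.73 to 0.80), Isg15 (-0.79 to 0.46), Irf7 (-0.43 to 0.17), Ccl3 (-0.26 to 0.17), Sdhc (-0.55 to 0.03), Sdhd (-0.32 to 0.03), Npy (-0.19 to 0.60), Zmym2 (-0.95 to 6.82) and Zscan29 (-0.44 to 6.94). Leaving out a succinate library gave no value for the contrasts by time or between these, since it empties its group. The groups of a time share only 1 replicate number, so the numbers do not pair the samples. With a replicate block 1314 genes were called over both times. Depth of 996916 to 1546867 counts limits genes with few counts.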
